A study of Mus musculus with 4 samples.

Results

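Interferon-stimulated genes were followed through single-cell libraries of mouse kidney as a list of 35 genes out of the 32285 in the count tables. They were chosen by name from a fixed list, matched by symbol, and all 35 had at least 1 UMI (unique molecular identifier, 1 count per captured RNA molecule) in the cells analysed. The study asked how a high-fat diet and loss of the renal glucose transporter SGLT2 change the cells of the kidney. It made 1 library from dissociated kidney of male C3H mice for each of 4 conditions, harvested at 18 weeks of age after 8 weeks of diet. WT-ND was wild type on normal diet, WT-HFD was wild type on a diet with 60% of calories from fat, and the other two, SP-ND and SP-HFD, were homozygous Sweet Pee mice on the same diets. Wherever 4 values follow each other below, wild type comes before Sweet Pee and, within a genotype, normal diet before high-fat diet. The Sweet Pee allele is a missense change in the gene of SGLT2, Slc5a2, present in every cell, so that the level of its RNA cannot check the genotype label. The methods name C3H/HeJ, a strain with a defective Tlr4 receptor for bacterial endotoxin, which all 4 groups would share. The number of mice behind a library was not given in the sources used here. With 1 library per condition no comparison has a replicate check, and intervals below are 95% and cover counting error only.

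Interferons are secreted proteins that bind receptors on the cell surface and, through JAK kinases, activate STAT transcription factors. Type I and III interferons act mainly through a complex that contains STAT2 and IRF9 and binds the interferon-stimulated response element (ISRE), and interferon gamma acts mainly through the gamma-activated site (GAS). The induced genes include antiviral proteins, sensors of foreign RNA, the factors that carry the signal itself and guanylate-binding proteins that attack intracellular pathogens, and many have a low level in resting endothelium and macrophages. By role the members were 4 genes of transcription control (Irf1, Irf7, Irf9, Stat2), 7 sensors and regulators (Ifih1, Ddx58, Trim25, Zbp1, Parp14, Rtp4, Xaf1) and the ubiquitin-like modifier Isg15 with its protease Usp18. The others were 12 antiviral effectors (Ifit1, Ifit2, Ifit3, Oas1a, Oas2, Oasl2, Rsad2, Cmpk2, Bst2, Ifi27, Ifi35, Ifi44), 3 interferon-induced transmembrane proteins (Ifitm1, Ifitm2, Ifitm3) and 7 interferon-inducible GTPases (Gbp2, Gbp3, Gbp7, Igtp, Irgm1, Iigp1, Ifi47).

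Promoter windows of RefSeq on GRCm38.p6, from 250 bases before to 50 bases after the annotated start, were matched by symbol to 28 of the 35 members. Zbp1, Parp14, Rtp4, Usp18, Oas2, Ifi27 and Iigp1 had no entry. An ISRE core, TTTCNNTTTC or its reverse complement GAAANNGAAA, lay in a window of 16 of the 28 members (57.1%), against 1079 of 27025 genes (3.99%). The GAS core TTCNNNGAA lay in a window of 8 of 28 members (28.6%), against 9.55% of all genes. The ISRE core was in 5 of 6 GTPases, 5 of 10 antiviral effectors, 2 of 3 Ifitm genes, 2 of 4 sensors and 1 of 4 transcription control genes. The windows of 6 genes on which the levels below turn are printed 5′ to 3′ on the gene's strand, with ISRE cores of either strand in capitals.
Isg15, chr4:156200769-156201068, minus strand: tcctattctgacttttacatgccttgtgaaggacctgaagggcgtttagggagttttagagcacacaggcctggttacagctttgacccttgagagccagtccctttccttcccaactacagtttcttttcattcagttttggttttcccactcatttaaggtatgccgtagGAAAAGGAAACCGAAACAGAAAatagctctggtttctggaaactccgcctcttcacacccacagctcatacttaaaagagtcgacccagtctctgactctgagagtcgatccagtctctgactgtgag
Irf7, chr7:141266375-141266674, minus strand: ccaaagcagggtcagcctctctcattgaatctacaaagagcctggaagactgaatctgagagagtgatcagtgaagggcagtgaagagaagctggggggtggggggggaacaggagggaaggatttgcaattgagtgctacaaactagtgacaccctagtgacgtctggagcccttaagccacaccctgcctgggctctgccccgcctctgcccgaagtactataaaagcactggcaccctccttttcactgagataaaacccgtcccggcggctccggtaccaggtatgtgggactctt
Ifit3, chr19:34583279-34583578, plus strand: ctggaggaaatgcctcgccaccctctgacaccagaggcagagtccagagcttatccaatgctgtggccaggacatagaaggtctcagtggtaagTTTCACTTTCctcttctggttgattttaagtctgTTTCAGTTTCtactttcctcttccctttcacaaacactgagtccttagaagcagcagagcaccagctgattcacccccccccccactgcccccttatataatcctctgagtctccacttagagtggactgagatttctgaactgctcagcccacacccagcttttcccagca
Gbp2, chr3:142620413-142620712, plus strand: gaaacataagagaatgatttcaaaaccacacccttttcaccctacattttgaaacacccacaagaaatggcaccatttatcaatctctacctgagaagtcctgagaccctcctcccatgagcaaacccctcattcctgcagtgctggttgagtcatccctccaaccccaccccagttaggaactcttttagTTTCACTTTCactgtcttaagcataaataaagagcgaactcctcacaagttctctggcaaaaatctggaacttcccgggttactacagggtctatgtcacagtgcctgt
Ifitm3, chr7:141010695-141010994, minus strand: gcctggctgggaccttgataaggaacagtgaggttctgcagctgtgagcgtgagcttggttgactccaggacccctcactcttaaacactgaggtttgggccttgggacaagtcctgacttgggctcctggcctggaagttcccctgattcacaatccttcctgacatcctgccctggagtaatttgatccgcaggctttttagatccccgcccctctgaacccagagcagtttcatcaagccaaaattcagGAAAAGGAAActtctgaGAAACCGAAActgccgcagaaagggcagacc
Rsad2, chr12:26456403-26456702, minus strand: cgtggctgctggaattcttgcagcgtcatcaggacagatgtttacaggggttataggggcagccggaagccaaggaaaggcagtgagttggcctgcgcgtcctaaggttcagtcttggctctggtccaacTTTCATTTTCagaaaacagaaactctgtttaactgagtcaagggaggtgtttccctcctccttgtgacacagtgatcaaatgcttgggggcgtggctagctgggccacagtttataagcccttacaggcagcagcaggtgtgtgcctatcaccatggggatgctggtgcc
Isg15 had 3 overlapping cores, beginning 78, 72 and 66 bases before the start, and Ifit3 had 2, at 156 and 122 bases. Gbp2 had 1 core 59 bases before the start and Rsad2 had 1 at 120 bases. Both cores of Ifitm3 lay just after its start, and the window of Irf7, the factor that amplifies the type I response, held neither motif. A match is a string of letters, not a bound site.

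The 4 libraries held 13229 to 16385 barcodes and 90728590 to 115117649 UMIs each. The labels give 10000 cells loaded per library, fewer than these barcodes and than the 10869 kept in WT-ND, so a kept barcode may not be 1 cell. Barcodes with 50% or more of their UMIs from mitochondrial genes made up 32.7%, 33.2%, 49.8% and 42.1% of the libraries, and 34789 cells were kept in all. Marker UMIs placed 517 to 899 cells per library in the immune class, 634 to 1030 in the endothelial class and 4079 to 7651 in the tubule class. The classes were checked on marker genes that had not been used to set them. Held-out immune genes summed to 24831 to 35921 UMIs per 1000000 UMIs of the class (CPM) in immune cells, at most 243 in endothelial cells and at most 191 in tubule cells. Held-out endothelial genes summed to 4264 to 8378 CPM in endothelial cells and at most 198 in tubule cells. WT-HFD stood apart from the rest. Its barcodes with markers of more than 1 class, which were left out, made up 16.05% of kept cells against 5.72% to 8.89% elsewhere, and its tubule cells had 191 CPM of held-out immune genes against 42.0 to 50.7. The comparison of diets in SP and that of genotypes on ND do not use this library. Members with close copies (the Ifit, Oas, Ifitm, Gbp and Irg families) can share reads with them, and Ifi47, Igtp, Irf9 and Rtp4 share exon bases with another gene on the same strand, so their counts are less certain.

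Among the 3 classes, endothelial cells carried the highest summed level of the members in every library. The 35 genes summed to 5230 CPM (5144 to 5317), 6214 (6129 to 6300), 5683 (5597 to 5770) and 7132 (7051 to 7214). Immune cells had 2668 (2585 to 2752), 1738 (1696 to 1781), 3204 (3123 to 3288) and 1993 (1952 to 2036) CPM. Tubule cells had 272 (267 to 276), 375 (370 to 380), 296 (290 to 301) and 386 (380 to 393) CPM. The 3 classes did not overlap in any library, and the order was endothelial, immune, tubule in all 4. A CPM here counts molecules by their 3′ end, so levels of different genes can be set side by side without scaling by gene length.

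**Figure D1:**
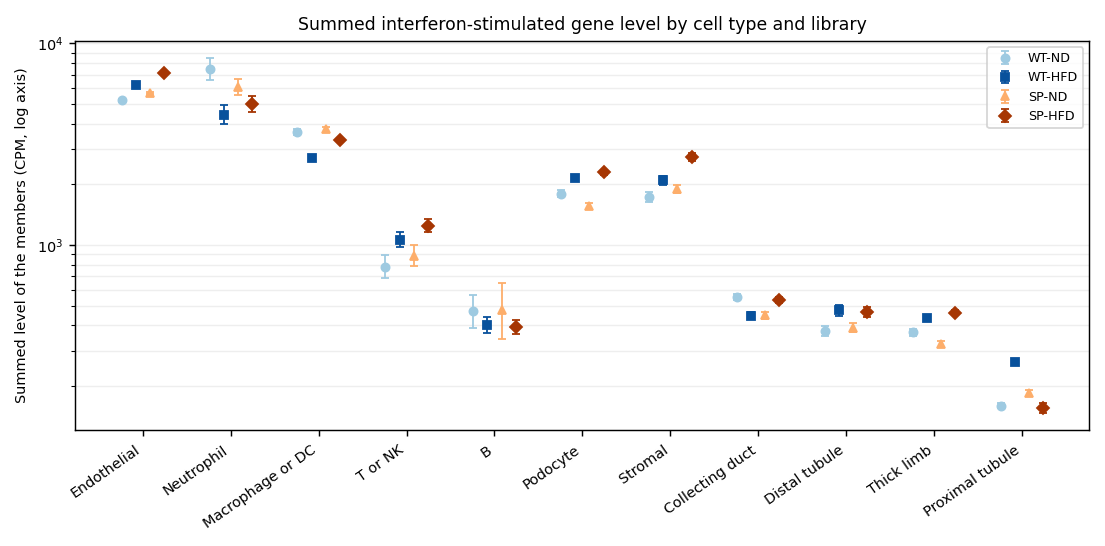
Summed level of the 35 interferon-stimulated genes (CPM, log axis, with 95% counting intervals) by cell type in the 4 libraries. Immune and tubule classes are drawn as their parts. Endothelial cells sit between 5230 and 7132 CPM, B cells between 394 and 479 CPM and proximal tubule between 156 and 264 CPM.

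Gene by gene, 23 of the 35 members were higher in endothelial cells than in both other classes in all 4 libraries, where 29.5% of all genes tested were. Immune cells were highest in the same sense for 3 members (Zbp1, Oas2 and Ifitm1), against 9.35% of genes, and tubule cells for 0, against 21.8%. Endothelial levels lay above tubule levels in all libraries for 34 members, the exception being Ifitm1, against 43.6% of genes. Immune levels lay above tubule levels for 32 members, the exceptions being Ifit1, Ifit3 and Ifi27, against 23.1%. Endothelial and immune values overlapped between libraries for Irf1, Irf9, Stat2, Trim25, Isg15, Oas1a, Oasl2, Igtp and Ifi47. Of the 4 transcription control genes, Irf7 alone was in the endothelial group.

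The endothelial sum was led by the transmembrane proteins that block virus entry. Ifitm3 had 1927, 2319, 1902 and 2686 CPM, which was 33.5% to 37.7% of the whole sum. Ifitm2 had 927, 1358, 1026 and 1332 CPM. Bst2, the tetherin that holds budding virus on the cell, had 315, 435, 399 and 530 CPM, with both HFD libraries above both ND libraries. Rsad2, viperin, had 256, 276, 403 and 317 CPM, highest in SP-ND. Ifi27, a mitochondrial and nuclear envelope protein, had 234, 282, 236 and 361 CPM. Isg15, the modifier that is conjugated to other proteins, had 94.1, 113, 112 and 156 CPM, and the amplifying factor Irf7 had 62.5, 63.0, 65.3 and 83.8. Ifit3, a partner of the effector IFIT1, had 36.8, 42.5, 51.4 and 68.6 CPM. Gbp2, a GTPase known as a target of interferon gamma, was lower, with 30.5, 39.1, 40.1 and 38.6 CPM.

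**Figure D2:**
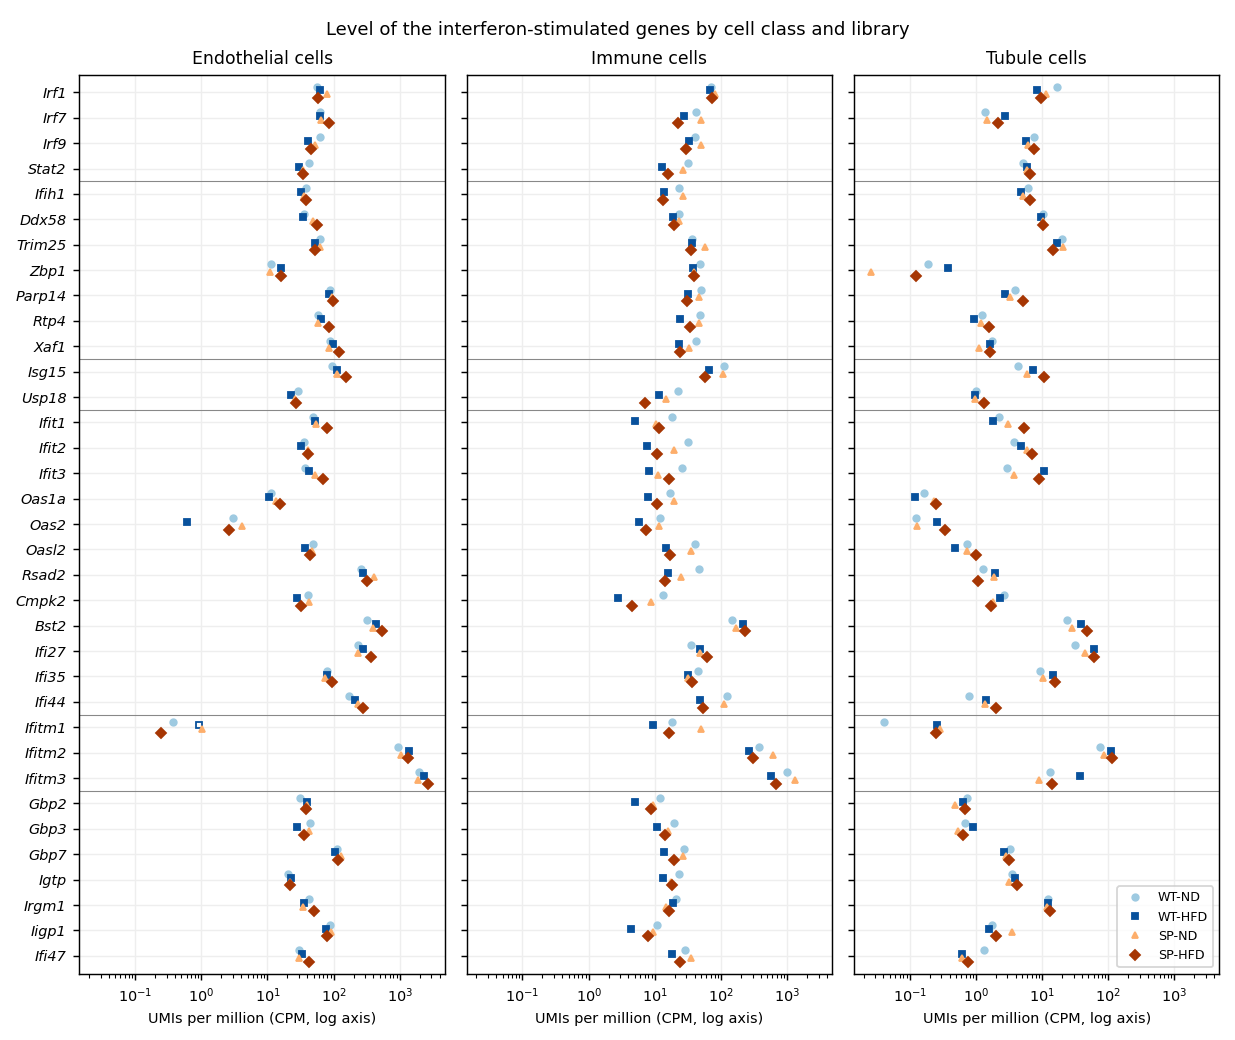
Level of each of the 35 members (CPM, log axis) in the immune, endothelial and tubule classes, 1 point per library, with open markers for a count of 0 drawn at the 3-count floor. Ifitm3 and Ifitm2 lead in endothelial and immune cells, and most tubule points lie far to the left of the endothelial ones.

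In immune cells Ifitm3 again led, with 988, 568, 1304 and 687 CPM. Ifitm2 had 370, 261, 619 and 300 CPM, Bst2 had 149, 215, 166 and 234, and Isg15 had 112, 66.1, 106 and 56.7. Both HFD libraries were below both ND libraries for Ifitm3 and Isg15 and above them for Bst2. Irf1, a factor induced mainly by interferon gamma, had 70.5, 68.3, 81.9 and 72.4 CPM, a narrow range in which the diets overlapped. Without B cells Irf1 had 79.5, 96.1, 81.9 and 104 CPM, with both HFD libraries above both ND libraries. Its log2 diet ratio was then 0.27 (-0.07 to 0.63) in WT and 0.34 (0.05 to 0.64) in SP. The class is a mixture, and its parts differed widely in the members. Neutrophils had 7477, 4431, 6072 and 5009 summed CPM, above the endothelial class in both ND libraries, but from 24, 35, 46 and 50 cells. Macrophages and dendritic cells had 3638, 2705, 3750 and 3315 CPM, T and NK cells had 784, 1067, 888 and 1250, and B cells had 472, 401, 479 and 394. Ifitm1 was at 670, 327, 1072 and 676 CPM in neutrophils, against 9.33 to 49.5 in the whole class.

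In tubule cells the leading genes were others. Ifitm2 led with 75.8, 109, 87.1 and 116 CPM, followed by Ifi27 with 31.4, 60.8, 44.1 and 61.6 and Bst2 with 24.1, 39.3, 28.8 and 48.5. Ifitm3 had 13.3, 37.1, 8.91 and 14.3 CPM, and Trim25, the ubiquitin ligase that activates the RNA sensor RIG-I, had 20.2, 17.1, 21 and 14.8. Isg15 had 4.31, 7.19, 5.94 and 10.7 CPM, Irf7 had 1.39, 2.71, 1.49 and 2.17, and Gbp2 stayed under 1 CPM in each library. The tubule sum was 5.20% to 6.03% of the endothelial sum and 9.22% to 21.6% of the immune sum. For held-out markers the same shares were 1.53% to 2.37% (endothelial genes) and 0.140% to 0.724% (immune genes). The shares of the summed members were above those of the held-out markers in every library. Shares of single members were not compared and need not follow the sum. Ifitm3, for example, had 13.3 CPM in tubule cells against 1927 in endothelial cells of WT-ND. In SP-HFD it had 14.3 against 2686. The part of RNA from other cells in the tubule levels was not tested.

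Segments of the tubule differed. The members summed to 160, 264, 185 and 156 CPM in proximal tubule, 371, 434, 323 and 463 in the thick ascending limb, 375, 476, 390 and 467 in distal tubule and 554, 448, 450 and 535 in the collecting duct. Proximal tubule was the lowest of the 4 segments in every library. Outside the 3 main classes, podocytes had 1802, 2153, 1563 and 2295 CPM, of which Ifitm2 alone gave 1357, 1744, 1233 and 1876. Stromal cells had 1738, 2094, 1897 and 2743 CPM. Both types had their highest value in SP-HFD and lay above every tubule segment.

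Taken over whole classes, the members summed lower on high-fat diet in immune cells and higher in endothelial and tubule cells, in both genotypes. For immune cells WT gave a log2 ratio of HFD to ND of -0.62 (-0.68 to -0.56) and SP one of -0.68 (-0.73 to -0.64). It was 0.25 (0.22 to 0.28) and 0.33 (0.30 to 0.36) for endothelial cells. In those cells held-out endothelial genes were also higher on HFD, at 4264, 7727, 5712 and 8378 CPM, and the median of tubule markers was lower, at 2.37, 1.01, 1.46 and 1.13 per 1000 UMIs. Their part in the result was not tested. For tubule cells the ratio of the members was 0.46 (0.43 to 0.50) and 0.39 (0.35 to 0.42), or 0.15 and 0.27 with the segments weighted equally. Held-out endothelial genes in tubule cells moved the same way, at 74.2, 142, 87.5 and 198 CPM, and their part was not tested either. The makeup of the immune class moved with diet. B cells, which were low in the members, gave 16.4%, 33.7%, 4.70% and 36.6% of immune UMIs. Without B cells, an alternative added after the data had been seen, the log2 ratios in immune cells were -0.36 in WT and -0.19 in SP. Some parts went against their class. T and NK cells gave 0.44 (0.22 to 0.68) in WT and 0.49 (0.29 to 0.70) in SP. Collecting duct gave -0.31 (-0.38 to -0.23) in WT, and proximal tubule gave -0.25 (-0.34 to -0.16) in SP.

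**Figure D3:**
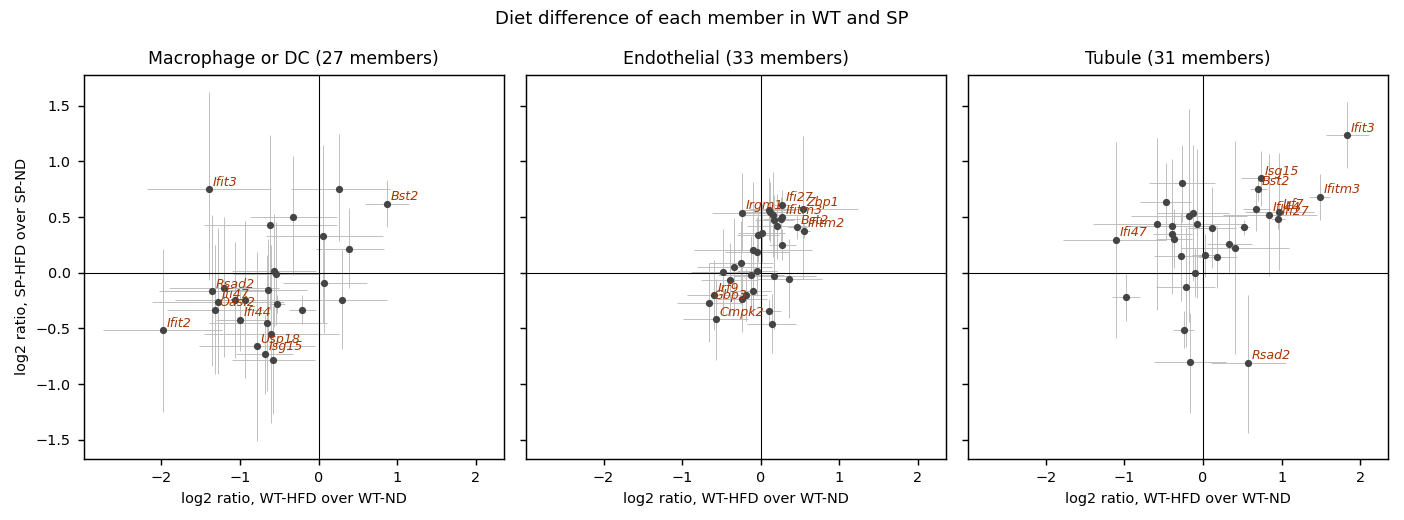
Log2 ratio of HFD to ND for each member that passed the count filter, in macrophages and dendritic cells, endothelial cells and tubule cells. WT is on the horizontal axis and SP on the vertical axis, with 95% counting intervals. Ratios of macrophages and dendritic cells lie below 0 for 21 of 27 members in WT, against 51.9% of all genes, and 19 of 27 in SP, against 57.2%. Endothelial ratios lie between -0.65 and 0.61.

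By member, 29 of the 31 genes that passed the count filter in immune cells were lower on HFD in WT and 23 of 31 in SP, but so were 66.5% and 82.5% of all genes tested. The median log2 ratio was -0.79 for members against -0.17 for all genes in WT, and -0.64 against -0.40 in SP. A log2 ratio below -1 was reached by 9 of 31 members in WT (Stat2, Rtp4, Ifit1, Ifit2, Ifit3, Oas1a, Oasl2, Rsad2 and Ifi44), against 4.75% of all genes, and a ratio above 1 by 0, against 1.64%. In SP it was reached by 7 of 31 (Irf7, Ifih1, Usp18, Oasl2, Ifi44, Ifitm1 and Ifitm2), against 7.28%, and above 1 were 0, against 1.91%. Oasl2 and Ifi44 were on both lists. Without B cells, 6 of 31 were past -1 in WT (Ifit1, Ifit2, Ifit3, Oasl2, Rsad2 and Ifi44), against 3.12% of genes. In SP 1 was, Ifitm1, against 1.36%, and Ifit3 was past 1, against 0.947%. Neutrophils, in which Ifitm1 was high, gave 4.16% of all immune UMIs in SP-ND and 2.12% in SP-HFD. These shares count the UMIs of B cells too. Ifitm1 was also lower within neutrophils in SP-HFD than in SP-ND, and the part of neutrophils was not tested. Both HFD libraries lay below both ND libraries for 22 of 31 members, where 53.1% of all genes did, and above them for Bst2 alone, where 7.86% did.

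The Ifit genes, whose proteins bind viral RNA, had unlike values in the 2 genotypes within the immune class and that difference was not tested. In WT, Ifit2 had 31.6 CPM on ND and 7.68 on HFD (log2 -2.04, -2.76 to -1.33), Ifit1 had 18.1 and 4.94, and Ifit3 had 26.2 and 8.23. In SP, Ifit3 had 11.0 CPM on ND and 16.4 on HFD (log2 0.58, -0.15 to 1.37), and Ifit1 had 10.4 and 11.6. In the whole class WT-ND was thus the highest library for these 3 genes and WT-HFD the lowest, with both SP libraries between them. This order did not hold in every part. Ifit1 had 9.04, 4.51, 8.99 and 11.8 CPM in macrophages and dendritic cells and 14.2, 7.73, 23.1 and 40.3 in T and NK cells. SP-HFD was highest for Ifit1 in both parts, from 24 and 25 UMIs. Without the 3 cells of most member UMIs per library, Ifit1 in macrophages and dendritic cells had 7.99, 3.42, 4.56 and 5.98 CPM. That is the order of the whole class. In T and NK cells it then had 10.8, 5.97, 3.39 and 16.4 CPM, with SP-HFD still highest. For Ifit2 and Ifit3, WT-ND was highest in macrophages and dendritic cells and SP-HFD in T and NK cells. In the whole class Irf7 had 41.6, 27.4, 50.6 and 22.1 CPM, with log2 ratios of -0.60 in WT and -1.20 in SP. Bst2 went the other way, at 0.53 (0.31 to 0.75) and 0.49. Of the other members at the ends of the immune ratios, Oasl2, a relative of the OAS enzymes, had 41.0, 14.5, 35.7 and 16.8 CPM, with each HFD library under each ND library. Rsad2 had 46.4, 15.6, 24.7 and 14.3 CPM. Trim25 had 36.9, 36.0, 58.3 and 35.1, so that SP-ND alone was high, and Ifi27 had 35.6, 47.8, 48.4 and 62.6, with SP-HFD highest.

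Macrophages and dendritic cells alone, 298 to 450 cells per library, showed the same direction at a smaller size. Their sum gave a log2 HFD to ND ratio of -0.43 (-0.49 to -0.36) in WT and -0.18 (-0.23 to -0.13) in SP. In these cells the median of all genes was near 0, -0.0029 in WT and -0.06 in SP, against -0.62 and -0.24 for the 27 members that passed the filter. Past -1 were 7 of 27 members in WT (Stat2, Zbp1, Ifit2, Ifit3, Oasl2, Rsad2 and Ifi47), against 3.32% of all genes, and 0 of 27 in SP, against 1.24%. Past 1 were 0 of 27 in both genotypes, against 1.75% and 0.92%. Without the 3 cells of most member UMIs per library, Rsad2 had 30.8 CPM in WT-ND and 19.4 in WT-HFD and was no longer past -1. Ifit2, with 37.7 and 13.1 CPM, and Ifit3, with 25.1 and 7.97, still were. Both HFD libraries were below both ND libraries for 15 of 27 members, against 26.5% of genes, and above them for Irf1, Bst2 and Ifi27, against 18.7%. Ifi44 had 197, 98.6, 151 and 113 CPM. Isg15 had 133, 82.9, 106 and 64.1 CPM, and Irf7 had 62.1, 41.7, 58.5 and 34.1. Bst2, one of the 3 higher members, had 160, 293, 204 and 314 CPM (log2 0.87, 0.60 to 1.15, and 0.62, 0.42 to 0.83). Of the 6 members that passed the filter in T and NK cells, Irf1, Isg15 and Ifi27 were higher in both HFD libraries, where 30.9% of genes were, and Isg15 had 28.4, 92.8, 42.9 and 67.7 CPM. Behind these were 25, 56, 24 and 65 UMIs of Irf1, 8, 48, 13 and 42 of Isg15 and 14, 55, 24 and 83 of Ifi27. Most came from the HFD libraries, through which these genes passed the filter, so their order is not read as a result.

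In endothelial cells the sum was higher on HFD while the typical member differed little. Across the 33 members that passed the filter, 0 lay past a log2 ratio of 1 in either direction and in either genotype, where 1.23% of all genes were higher and 2.08% lower by that much in WT, and 0.788% and 0.832% in SP. The median member was at 0.01 in WT and 0.19 in SP, against -0.0037 and -0.02 for all genes. Both HFD libraries were above both ND libraries for 9 members (Zbp1, Rtp4, Xaf1, Isg15, Bst2, Ifi27, Ifitm2, Ifitm3 and Ifi47), against 23.6% of genes, and below them for 6 (Irf9, Trim25, Oasl2, Cmpk2, Gbp3 and Iigp1), against 24.3%. Those shares are near the background. The adaptor Zbp1, a sensor of Z-form nucleic acids, had 11.2, 16.2, 10.9 and 16.2 CPM, and its intervals for the diet ratio were wide (log2 0.54, -0.13 to 1.23, in WT). Irf9, the DNA-binding member of the STAT complex, had 62.9, 41.6, 53.1 and 46.1 CPM. Among the higher ones, Ifitm2 had the largest ratio in WT at 0.55 and Ifi27 the largest in SP at 0.61 (0.48 to 0.74). Among the lower ones, Gbp3 had 44.3, 28.1, 42.5 and 35.3 CPM. Cmpk2, a mitochondrial nucleotide kinase that lies next to Rsad2, had 40.9, 27.5, 42.5 and 31.9 CPM.

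Between genotypes, endothelial members were more often higher in SP on HFD. The sum was higher than in WT by a log2 ratio of 0.12 (0.09 to 0.15) on ND and 0.20 (0.17 to 0.22) on HFD. On HFD 27 of 33 members were higher in SP, where 50.7% of all genes were, and the interval excluded 0 for 15 of them and for 0 in the other direction. On ND 19 of 33 were higher, near the 52.3% of all genes, with the interval above 0 for 8 and below 0 for 0. Past a log2 ratio of 1 were 0 of 33 in either direction on ND (all genes 1.18% up and 1.5% down) and on HFD (0.405% up and 0.197% down). Both SP libraries were above both WT libraries for 10 of 33 members (Irf7, Ddx58, Parp14, Ifit1, Ifit2, Ifit3, Oas1a, Rsad2, Ifi44 and Gbp7), against 14.5% of genes, and below them for 0, against 13.0%. Ifi44 had 172 and 209 CPM in the WT libraries against 232 and 276 in the SP libraries. Ifit3 had 36.8 and 42.5 against 51.4 and 68.6 CPM, and Ddx58, which encodes the RNA sensor RIG-I, had 35.7 and 34.5 against 49.0 and 55.8. The largest ratio on HFD was that of Ddx58 at 0.69, level with Ifit3 at 0.69, and on ND that of Rsad2 at 0.66 (0.52 to 0.79). Irf1 was highest in SP-ND, with 55.8, 61.5, 79.6 and 57.9 CPM, and Ifit1 in SP-HFD, with 48.7, 52.6, 54.1 and 80.2. The lowest ratios on ND were those of Stat2 (42.4 CPM in WT-ND and 34.0 in SP-ND) and Irgm1 (42.4 and 34.7), and their intervals included 0.

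**Figure D4:**
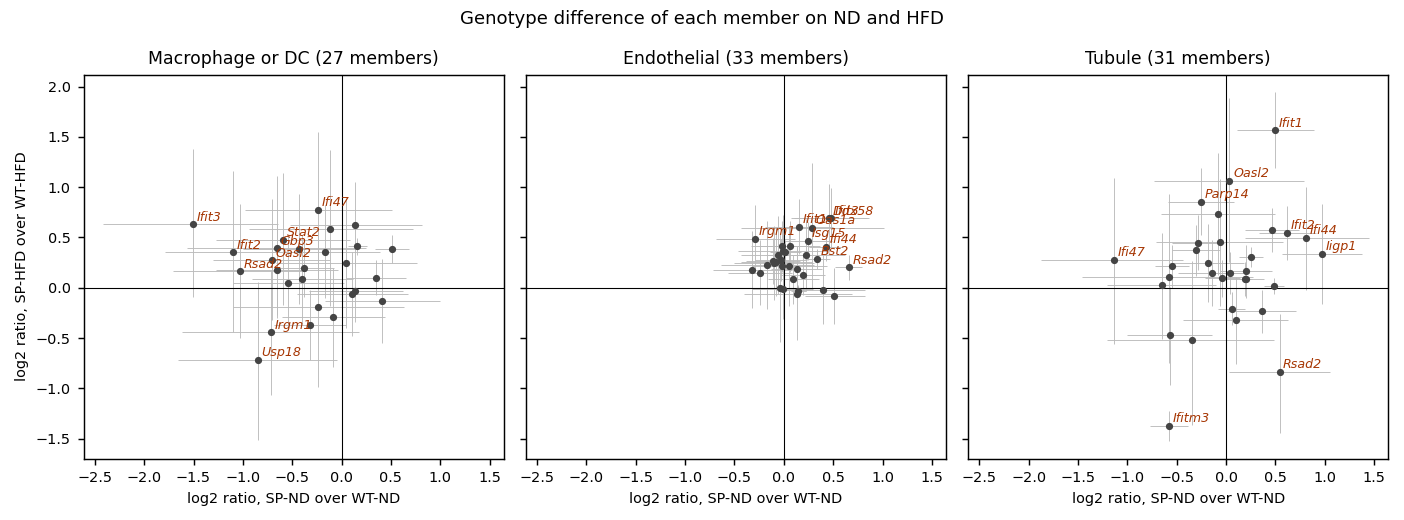
Log2 ratio of SP to WT for each member that passed the count filter, in macrophages and dendritic cells, endothelial cells and tubule cells. ND is on the horizontal axis and HFD on the vertical axis, with 95% counting intervals. Endothelial ratios on HFD lie between -0.08 and 0.69, with 27 of 33 above 0. Ratios of macrophages and dendritic cells reach below -1 on ND, and tubule ratios reach past 1 and -1 on HFD.

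In immune cells the genotype ratios of the sum were 0.26 (0.21 to 0.32) on ND and 0.20 (0.15 to 0.24) on HFD, but the members did not move together on ND, and with sub-classes weighted equally the ratio on ND was -0.14. There the Ifitm genes were higher in SP, with Ifitm1 at 1.45, which placed 1 of 31 members past 1 against 2.14% of genes. Ifit3 was lower, at -1.25, which placed 1 of 31 past -1 against 2.6%. Neutrophils, in which Ifitm1 was high, gave a larger share of immune UMIs in SP-ND than in WT-ND, and their part was not tested. On HFD, Ifit1 at 1.23 was the 1 member of 31 past 1, against 0.595% of genes, and 0 were past -1, against 0.69%. Few cells held this Ifit1, which had 27, 18, 19 and 51 UMIs and passed the count filter only with SP-HFD counted. Of 51 UMIs in SP-HFD, 24 were in macrophages and dendritic cells and 25 in T and NK cells, and without the 3 cells of most member UMIs in each these were 12 and 10. Usp18, the protease that removes ISG15 and damps the receptor, was lowest at -0.71, with 11.5 CPM in WT and 7.06 in SP. In macrophages and dendritic cells on ND, Ifit2, Ifit3 and Rsad2 were below -1 in SP (3 of 27 members against 2.11% of genes) and 0 were above 1 (against 1.1%). On HFD 0 of 27 were past 1 in either direction, against 0.668% up and 0.487% down. Without the 3 cells of most member UMIs per library, Ifit2 on ND had 37.7 CPM in WT and 22.8 in SP. Rsad2 then had 30.8 and 18.2 CPM and Ifit3 had 25.1 and 8.36, so that of these genes Ifit3 alone was still below -1.

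In tubule cells as a whole, Ifit3 and Ifitm3 stood out under diet in WT. Ifit3 had 2.94 and 10.5 CPM in the WT libraries (log2 1.84, 1.57 to 2.11), and 3.79 and 8.93 in the SP libraries (1.24, 0.94 to 1.53). Ifitm3 had 13.3 and 37.1 CPM in WT (1.48, 1.35 to 1.62) and 8.91 and 14.3 in SP (0.68, 0.48 to 0.89). Cells placed in no segment made up 12.8%, 25.8%, 13.7% and 15.2% of tubule cells. Proximal tubule, thick ascending limb, distal tubule and collecting duct held 186, 60, 36 and 21 of the 523 Ifit3 UMIs of WT-HFD. In WT-ND they held 52, 52, 15 and 8 of 142. For Ifitm3 they held 807, 118, 60 and 125 of 1845 UMIs in WT-HFD, and 296, 91, 46 and 91 of 640 in WT-ND. The WT-HFD tubule level of Ifitm3 was above that of every segment. The part of cells in no segment was not tested. Past 1 were 2 of 31 members in WT, against 4.16% of genes, and 1 of 31 in SP, against 2.98%. Ifi47, a GTPase, was the 1 member past -1 in WT, against 1.52%, and in SP 0 were, against 1.65%. Both HFD libraries were above both ND libraries for 11 of 31 members (Irf7, Isg15, Ifit3, Bst2, Ifi27, Ifi35, Ifi44, Ifitm2, Ifitm3, Igtp and Irgm1), against 28.4% of genes, and below them for Irf1 and Trim25, against 14.9%. For the genotypes, 6 of 31 members were higher in both SP libraries, against 34.8% of genes. On ND 0 of 31 were past 1 (against 1.53%) and Ifi47 was past -1 (against 2.35%). On HFD Ifit1 and Oasl2 were past 1 (against 0.939%) and Ifitm3 was past -1 (against 2.89%). Members at the ends of the tubule ratios were mostly rare there. Ifi47 had 1.35, 0.623, 0.615 and 0.754 CPM, from 24 to 65 UMIs a library, and Oasl2, Gbp3 and Ifi44 lay between 0.482 and 1.98 CPM. Parp14, an ADP-ribosyltransferase, had 3.87, 2.79, 3.25 and 5.06 CPM, and Ifit2 had 3.81, 4.80, 5.86 and 7.01. Ifit1 had 2.20, 1.83, 3.1 and 5.41 CPM, and Iigp1 had 1.76, 1.57, 3.46 and 1.98. Without the 3 cells of most member UMIs, Ifit1 in SP-HFD had 2.96 CPM. Irf1 was less rare and lower on HFD, with 16.6, 8.44, 11.4 and 9.78 CPM. The collecting duct held 577 of its 803 UMIs in WT-ND. Elsewhere Irf1 was slightly higher in WT-HFD than in WT-ND. It had 2.16 and 3.38 CPM in proximal tubule, 7.41 and 7.78 in thick ascending limb and 7.03 and 10.0 in distal tubule. In SP it was lower on HFD in each of these segments.

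The segments did not share these differences. In proximal tubule the sum was higher on HFD in WT (log2 0.72, 0.67 to 0.78) and lower in SP (-0.25, -0.34 to -0.16). Past 1 in WT were 5 of 21 members (Isg15, Ifit3, Bst2, Ifi27 and Ifitm3), against 6.57% of genes. Of these, Isg15 had 41, 81, 16 and 4 UMIs and passed the count filter only with WT-HFD counted. On HFD, 7 of 21 members were below -1 in SP against WT (Irf1, Isg15, Ifit2, Ifit3, Bst2, Ifitm2 and Ifitm3), against 5.75%. Ifitm3 in proximal tubule had 10.8, 35, 5.54 and 7.19 CPM, and Bst2 had 5.63, 13.7, 3.61 and 3.65, so WT-HFD was the high library for both. Markers of other cells moved with this. Held-out immune genes had 53.0, 199, 80.5 and 47.6 CPM and held-out endothelial genes 10.3, 73.6, 9.92 and 14.4 CPM in proximal tubule, highest in WT-HFD, and their part in the result was not tested. In the 478 to 2552 proximal cells per library with no UMI of an immune, endothelial, stromal or podocyte marker, the members summed to 129, 165, 171 and 151 CPM, and in the remaining proximal cells to 188, 302, 192 and 158. WT-HFD was highest in the second set. In the first set its interval (155 to 175) lay above that of WT-ND (123 to 136). It overlapped those of SP-ND (160 to 183) and SP-HFD (136 to 167), so no highest library is named there. In the first set Ifitm3 had 5.18, 3.81, 2.91 and 6.16 CPM and Bst2 had 4.10, 4.13, 3.88 and 1.23. Against 35 CPM of Ifitm3 and 13.7 of Bst2 in all proximal cells, WT-HFD had 3.81 and 4.13 in that set. Ifi27 had 11.8, 24.3, 11.6 and 23.0 CPM in that set. Isg15 had 0.927, 2.22, 1.55 and 1.23 CPM there, from a part of the 41, 81, 16 and 4 UMIs in all proximal cells. No intervals were made for single genes in that set, so no order of libraries is read from Ifitm3, Bst2, Ifi27 or Isg15. Cells of the first set were also shallower, with medians of 2920.5, 4463, 4657 and 2101.5 UMIs against 8010, 6192.5, 15915 and 13533.5 in the second.

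In the thick ascending limb the members past 1 on HFD were in SP. They were Isg15, Ifit1, Ifit3 and Ifitm3, where 1.13% of all genes were, and in WT none of the members that passed the filter, where 1.08% were. Isg15 had 11.3, 12.7, 10.9 and 24.5 CPM, so that SP-HFD alone was high (log2 1.17, 0.84 to 1.52, in SP and 0.18, -0.27 to 0.62, in WT). Ifit3 had 7.70, 7.41, 3.34 and 15.1 CPM. In the collecting duct, Irf1 had 97.9, 27.9, 52.3 and 27.6 CPM. Both ND libraries were above both HFD libraries, and the counts behind this were 577, 164, 283 and 211 UMIs in 181, 97, 103 and 113 cells. Leaving out the 3 cells with the most member UMIs per library gave 96.6, 27.7, 46.6 and 27.5 CPM, close to the values with all cells.

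The members were spread unevenly over single cells. To compare cells of unequal depth, each cell was thinned to 1000 UMIs, and shallower cells were left out. Left out were 25, 8, 31 and 38 endothelial, 34, 9, 17 and 19 immune and 1591, 377, 424 and 430 tubule cells. A cell was counted when it had at least 3 UMIs of the 30 members outside the Ifitm family, Bst2 and Ifi27. Such cells were 28.2% (24.8 to 31.7), 28.1% (24.6 to 31.8), 33.3% (29.9 to 36.9) and 34.3% (31.3 to 37.3) of the remaining endothelial cells. Both SP libraries were above both WT libraries, with intervals that overlapped in part, and within each genotype the diets lay within each other's interval. In immune cells the shares were 11.1%, 7.10%, 9.60% and 7.61%, and in macrophages and dendritic cells 16.2% (12.1 to 20.9), 6.86% (4.30 to 10.3), 10.7% (7.47 to 14.7) and 12.4% (9.45 to 15.8). The share in macrophages was lowest in WT-HFD, while the intervals of the SP libraries overlapped each other. In tubule cells it was 0.545%, 0.385%, 0.293% and 0.548%, against 0% to 0.658% in podocytes. Before thinning, with median depths of 2544 to 3872 UMIs in endothelial, 2280 to 4189 in immune and 4801 to 8355 in tubule cells, the shares were 68.0% to 77.9%, 37.7% to 49.3% and 7.44% to 12.3%.

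**Figure D5:**
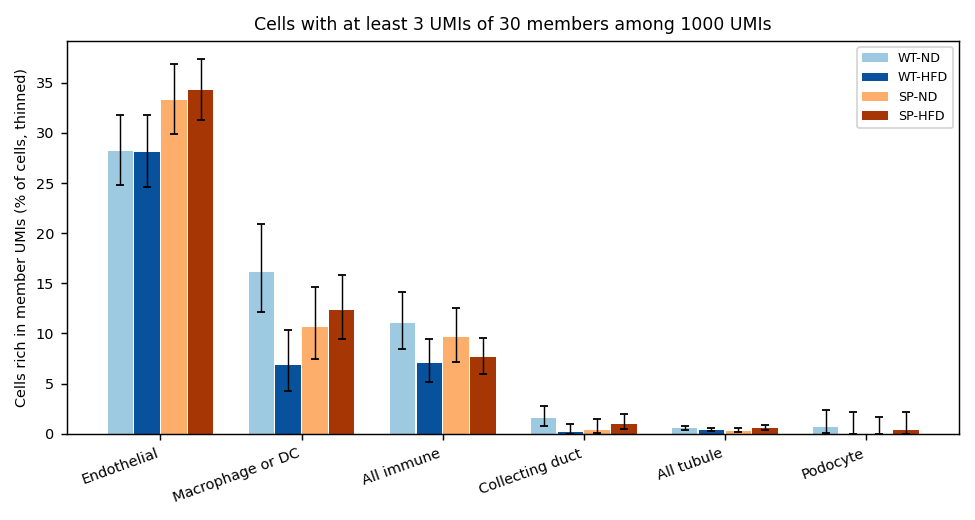
Share of cells (percent, with 95% exact binomial intervals) with at least 3 UMIs of 30 members after thinning to 1000 UMIs, by class and library. Shallower cells were left out. Endothelial cells lie between 28.1% and 34.3% and tubule cells under 0.6% in each library.

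A few tubule cells held UMIs of many members at once. Cells in which at least 10 of the 30 members had a UMI, a limit chosen after the values were seen and without thinning, numbered 15, 7, 9 and 10 among tubule cells, or 0.196%, 0.115%, 0.215% and 0.245%. Their median depth, 11709, 9742, 14868 and 15888 UMIs, was above that of the class. In 7, 4, 5 and 3 of them no UMI of the held-out immune or endothelial genes was found, while 2, 1, 3 and 4 had at least 3 UMIs of the immune ones and 2, 1, 1 and 3 at least 3 of the endothelial ones. UMIs of Isg15, Ifit1, Ifit2, Ifit3, Rsad2, Ifi44, Oasl2, Irf7, Usp18 and Cmpk2 were summed, as were those of the GTPases and Irf1. The first sum was the higher in 9, 5, 6 and 7 of these cells, and the lower in 6, 2, 2 and 3. The tubule cell with the most was a collecting duct cell of SP-HFD with 232 member UMIs of 19231 in all, among them 43 of Ifit3, 39 of Ifit1, 24 of Ifit2 and 18 of Isg15. It held 12.9% of the UMIs of the 30 members in its segment. A proximal tubule cell of SP-ND was led by GTPases, with 131 member UMIs of 23079, among them 60 of Iigp1, 12 of Igtp, 10 of Irf1 and 9 of Gbp7. Endothelial cells passed the same limit far more often, with 85, 100, 111 and 170 cells, or 12.0%, 15.8%, 14.8% and 16.5%. Without the 3 cells of most member UMIs in a library, Ifit1 in the SP-HFD collecting duct went from 11.8 to 1.58 CPM and Ifit3 from 14.9 to 4.61, so these 2 levels rested on those cells. Iigp1 in proximal tubule of SP-ND went from 7.09 to 1.94 CPM in the same step. For Ifit3 in the whole tubule class the same step turned 10.5 CPM into 9.77 for WT-HFD, and 8.93 into 6.46 for SP-HFD.

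The genes around the members in the pathway were read from lists by the same rules. Of 21 interferon genes, Ifng alone passed the filter, in immune cells, with 84.0, 153, 75.9 and 77.2 CPM, and Ifnb1 had 13 UMIs in all immune cells together. At this depth the other ligands were not detectable as levels. Among receptors, Ifnar2 in endothelial cells had 153, 234, 203 and 243 CPM, with both HFD libraries above both ND libraries. Socs3, a feedback inhibitor of JAK kinases, had 133, 41.9, 146 and 28.7 CPM in endothelial cells and 82.0, 48.9, 95.1 and 35.3 in immune cells, lower on HFD in both genotypes, and 12.4, 22.6, 12.9 and 17.0 in tubule cells, where it was higher. Of 46 interferon-stimulated genes outside the 35, 29 passed in immune cells, and 27 of these in WT and 28 in SP were lower on HFD, against 66.5% and 82.5% of all genes. Past -1 were 9 and 7, against 4.75% and 7.28%, and the medians were -0.65 and -0.66. In macrophages and dendritic cells 23 of 25 were lower in WT (median -0.53), against 51.9% of all genes (median -0.0029). In SP 16 of 25 were lower (median -0.098), nearer to the 57.2% of all genes (median -0.065). In endothelial cells 25 of 31 were higher in SP than in WT on HFD, against 50.7% of all genes, and 18 of 31 on ND, against 52.3%.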

How the data were processed

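Kidneys were dissociated with enzymes, and single-cell 3′ libraries (10x Genomics v3.1 chemistry) were made, 1 per condition. The deposited UMI counts per gene and barcode came from Cell Ranger, 6.1.2 in the file headers and 2.1.1 in the submitters' processing notes, with the mm10 genome. Each deposited count table holds 1 library. Promoters came from RefSeq on GRCm38.p6 and exon overlaps from GENCODE M21 on the same build.

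Groups came from the sample titles. Cells with 200 to 5000 genes and under 50% mitochondrial UMIs were kept. A cell joined a class with at least 5 marker UMIs making up at least 3 per 1000 of its UMIs (5 per 1000 for tubule). Cells with at least 3 UMIs and 1.5 per 1000 from markers of a second class (5 per 1000 for tubule) were left out, which was the treatment of doublets, and no doublet caller was run. These limits were set after the data had been seen. Of classed cells, 0.567% to 2.60% lay within 1.25-fold of the limit. A sub-class needed 2 marker UMIs and 2-fold the next sum. The library pairs shared 54 to 77 barcodes.

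UMIs were summed per library and class and given as CPM with exact Poisson intervals. Intervals of log2 ratios were exact conditional binomial, and those of cell shares were Clopper-Pearson, all at 95%. Genes needed 100 UMIs over the 4 libraries of a class to enter ratios. Ratios past 1 on the log2 scale were counted beside all genes. With 1 library per condition there was no test. The members, pathway lists and class limits were chosen with earlier results of these data known. Genes named are the 5 highest members per class, the 3 highest and 3 lowest ratios per class and comparison, 1 example per role (Isg15, Irf7, Ifit3, Gbp2, Ifitm3), members counted as past a limit or not overlapping, and examples from pathway lists. Alternatives to each filter, scaling and class limit are given under the dependence on the processing. The calculations were tested on simulated data. Python 3.11.15, numpy 2.4.6, scipy 1.17.1 and pandas 2.3.3 were used.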

Additional observations from a re-analysis of the deposited data

Results flagged for a closer look

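In tubule cells 4 members had diet ratios of opposite sign in the 2 genotypes, each with an interval on 1 side of 0, and the difference was not tested because each condition had 1 library. The share of all genes that met the same rule is not given here, so the count of 4 cannot be read against it. On the log2 scale HFD over ND gave -0.37 in WT and 0.31 in SP for Irf9, -0.39 and 0.35 for Ifih1 (the RNA sensor MDA5), and -0.47 and 0.64 for Parp14. For Rsad2 it was 0.57 in WT and -0.81 in SP. Of its 95 UMIs in WT-HFD, 15 were in 1 cell. Without the 3 cells of most member UMIs per library, Rsad2 had 1.18 and 1.57 CPM in the WT libraries and 1.51 and 0.819 in the SP libraries. No interval was made for these values, and the step was not run for Irf9, Ifih1 and Parp14.

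The summed level moved in opposite directions with diet in immune and endothelial cells, also not tested. It was -0.62 in immune and 0.25 in endothelial cells in WT, and -0.68 and 0.33 in SP.

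Barcodes with 50% or more mitochondrial UMIs, which entered no comparison, held member UMIs too. Their summed level was 99.0 and 109 CPM in the WT libraries (ND, then HFD) and 93.9 and 119 in the SP libraries, under the tubule class of the same library in all 4.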

How the results depend on the processing

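No paired analysis was possible because each condition is 1 library with no replicate number, and no library could be left out of a group for the same reason. Of 140 alternative values of the 12 summed log2 ratios, 68 moved by less than the counting interval, 61 moved further with the same sign and 11 changed sign. The immune and endothelial diet ratios kept their sign under every alternative, from -0.69 to -0.36 (immune, WT), -0.75 to -0.17 (immune, SP), 0.19 to 0.29 (endothelial, WT) and 0.23 to 0.35 (endothelial, SP). The SP to WT ratio of tubule cells on HFD changed sign in 7 of 12. The cause was not tested. Values that moved follow, given as diet in WT, diet in SP, genotype on ND and genotype on HFD where all 4 moved.

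Under 30% mitochondrial UMIs, tubule gave 0.29, 0.24, 0.17 and 0.12. With up to 6000 genes per cell, endothelial genotype on ND gave 0.083, tubule diet in WT 0.38 and tubule genotype on HFD 0.10. With double the marker minimum, immune gave -0.55, -0.46, 0.15 and 0.25, endothelial diet in WT 0.29 and genotype on ND 0.17, and tubule 0.53 and 0.42 for diet and -0.0014 for genotype on HFD. With cells of more than 1 class kept, immune gave -0.56 and -0.54 for diet and 0.28 for genotype on HFD, endothelial 0.19 for diet in WT and 0.20 and 0.36 for genotype, and tubule 0.031 and -0.016 for genotype. With CPM outside mitochondrial genes, diet in WT gave -0.69 in immune and 0.22 in endothelial cells, tubule diet in SP 0.30 and tubule genotype on ND 0.19. As means over cells, immune gave -0.44, -0.30, 0.14 and 0.29, endothelial 0.29 for diet in SP and 0.16 for genotype on HFD, and tubule 0.37, 0.30, -0.014 and -0.089. With 10% ambient UMIs subtracted, diet in SP gave -0.75 in immune and 0.31 in tubule cells, and tubule genotype on HFD -0.046. Without the member of most UMIs, immune gave -0.52, -0.54 and, for genotype on ND, 0.18, and endothelial 0.23 for diet in SP and 0.20 for genotype on ND. Minus the median of all genes, immune gave -0.45, -0.29, 0.14 and 0.29, and tubule 0.28 for diet in SP and 0.043 and -0.12 for genotype. With sub-classes weighted equally, immune gave -0.52, -0.17 and, for genotype on ND, -0.14, and tubule 0.15, 0.27, -0.11 and -0.0011. Alternatives added after the data had been seen gave -0.36, -0.19, 0.11 and 0.27 for immune cells without B cells, -0.43, -0.18, 0.044 and 0.29 for macrophages and dendritic cells, and 0.72, -0.25, 0.21 and -0.76 for proximal tubule alone. Without the low-count filter, the members past 1 in either direction numbered 2, 1, 1 and 2 in endothelial cells (0 with it) and 6, 3, 3 and 5 in tubule cells (3, 1, 1 and 3 with it). Their median was then 0.090 for endothelial diet in SP and 0.026 for tubule diet in WT (-0.07 with it).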

Other observations

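Among interferon-stimulated genes outside the 35, Gbp8, a guanylate-binding GTPase, had the largest diet ratio in tubule cells and was singled out after its values were seen. In proximal tubule it had 13 UMIs on ND and 274 on HFD in WT, and 2 and 195 in SP, or 0.475, 11.9, 0.129 and 21.6 CPM. Both HFD libraries were far above both ND libraries. The UMIs came from 213 cells of WT-HFD and 131 of SP-HFD, with at most 5 and 9 in 1 cell. In the thick ascending limb, distal tubule and collecting duct it had at most 5 UMIs per library. Reads shared with other Gbp genes cannot be told apart here, and with 1 library per condition the difference has no replicate check.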
